A study of Bostrychia moritziana with 3 samples.

Results

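The transcripts described here were abundant and less than 2-fold apart in level across 3 life stages of Bostrychia moritziana, a red alga. They were chosen by their values: at least 100 RPKM in each of the 3 RNA sequencing libraries, with the highest value less than 2 times the lowest. Of the 36534 transcripts in the series, 28609 were listed for all 3 libraries, and 152 of these met the rule, a share of 0.531%. The listings differed in length, with 34695 transcripts for the tetrasporophyte, 30448 for the male and 30448 for the female. RPKM counts the reads on a transcript for each kilobase of its length and for each 1000000 reads mapped, so levels can be set side by side between transcripts of different length. Because the rule used all 3 libraries, the levels and ratios of the 152 are a description with no test.

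The libraries were of tetrasporophytes bearing mature sporangia, of male gametophytes forming spermatangial clusters, and of female gametophytes forming carpogonial branches. All came from strain 2746, grown as unialgal cultures under shared conditions, and the tetrasporophytes had grown from carpospores released after males and females were kept together. Each stage had 1 library, so no spread between replicates is known for any value, and whether several thalli were pooled is not given in the sources used here. The libraries hold the bulk RNA of thalli, in which fewer cells of a type and less RNA per cell cannot be told apart. The listed values summed to 486668 RPKM in tetrasporophytes, 502958 RPKM in males and 455672 RPKM in females, and the numbers of reads behind them are unknown.

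In the life history of such red algae, a tetrasporophyte that lives on its own takes turns with separate male and female plants of similar build, and its sporangia form the spores that grow into new gametophytes. In algae and other eukaryotes, transcripts that are abundant at every stage often encode parts of the machinery all cells run, such as ribosomal proteins, translation factors, histones, the cytoskeleton and, in photosynthetic cells, proteins of the chloroplast. Transcripts with near-constant levels are also the ones sought as references for quantitative PCR. These roles are general background. Each transcript is known by a number after the prefix ISGT, the files used here pair no such number with a gene name or sequence, and no role can be given to any of the 152. The phycobilisome, ribosome and other gene families could not be looked up for the same reason.

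The most abundant steady transcript was ISGT_42332, with 1663 RPKM in tetrasporophytes, 1955 RPKM in males and 2843 RPKM in females. It ranked 6th of all listed transcripts in the tetrasporophyte, 8th in the male and 3rd in the female. ISGT_42309 followed with 931 RPKM in tetrasporophytes, 1070 RPKM in males and 1611 RPKM in females. Both were highest in the female and lowest in the tetrasporophyte, with a highest value 1.71 and 1.73 times the lowest. ISGT_3816 stood at 1192 RPKM in tetrasporophytes, 808 RPKM in males and 1268 RPKM in females, so that here the male was the low library. ISGT_41158 had 600.3 RPKM in tetrasporophytes, 606 RPKM in males and 930 RPKM in females, nearly equal values in the first 2 and a higher one in the female. ISGT_4669, with 527 RPKM in tetrasporophytes, 807 RPKM in males and 737 RPKM in females, was the only 1 of the 6 most abundant that was highest in the male. ISGT_7092, the last of these 6, stood at 594 RPKM in tetrasporophytes, 451 RPKM in males and 753 RPKM in females.

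Below these, most of the set lay close to its lower limit. By geometric mean over the libraries, 93 of the 152 lay between 100 and 200 RPKM, 30 between 200 and 300 RPKM, 17 between 300 and 500 RPKM, 9 between 500 and 1000 RPKM and 3 at 1000 RPKM or more. The median steady transcript stood at 180 RPKM in tetrasporophytes, 179 RPKM in males and 193 RPKM in females. The quartiles were 132 and 266 RPKM for tetrasporophytes, 141 and 250.2 RPKM for males, and 145 and 278 RPKM for females. The 3 libraries differed little at the median and quartiles and most at the top of the range, where the female had the highest values.

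**Figure D1:**
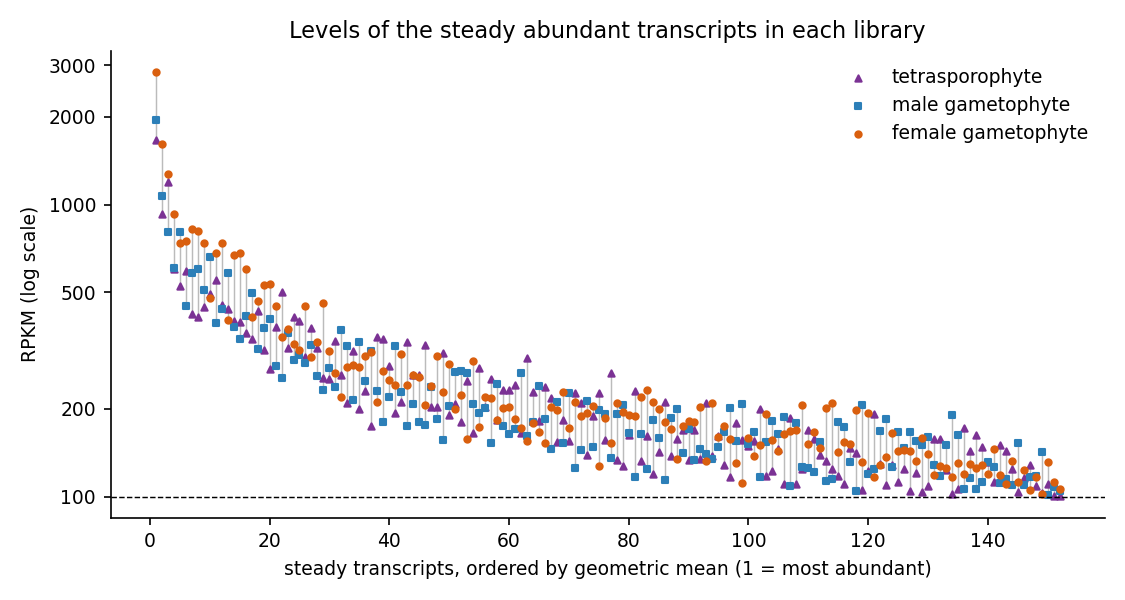
RPKM (log scale) of the 152 steady transcripts in the tetrasporophyte, male and female library, ordered by geometric mean. Each vertical line joins a transcript's lowest and highest value, and the dashed line is the 100 RPKM limit. Of the 6 leading transcripts 5 are highest in the female, while of the 93 below 200 RPKM the highest library is the tetrasporophyte in 29, the male in 33 and the female in 31.

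Of the summed RPKM, the 152 transcripts held 7.39% in the tetrasporophyte, 7.16% in the male and 9.28% in the female. They made up 22.4% of the 679 transcripts at 100 RPKM or more in the tetrasporophyte, 21.2% of the 718 in the male and 21.1% of the 720 in the female. Among the top 100 transcripts by RPKM, 13 were steady in the tetrasporophyte, 16 in the male and 23 in the female. A total of 15 transcripts were in the top 100 of every library, and 11 of these 15 were steady ones, though a place in every top 100 itself favours transcripts of similar level. Transcripts that reached 100 RPKM in all 3 libraries but were 2-fold or more apart numbered 135. They were fewer but took more places in the top 100, with 44 in the tetrasporophyte, 35 in the male and 47 in the female. They also held more of each library: 12.9% of the summed RPKM in the tetrasporophyte, 12.7% in the male and 14.0% in the female. In the male, 1 of the 135 alone stood at 15688 RPKM, out of 63915 RPKM for all 135. A transcript 2-fold or more apart must also reach at least 2 times the lower limit in some library, which a steady one need not. The larger number of places and the larger share of RPKM are thus partly built into the split.

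This set was level within limits and was not flat. The ratio of the highest to the lowest value had a median of 1.49 and quartiles of 1.33 and 1.69. It was below 1.1 in 5 transcripts, between 1.1 and 1.3 in 25, between 1.3 and 1.5 in 47, between 1.5 and 1.7 in 42, and between 1.7 and 2 in 33. Among the 135 other transcripts that reached 100 RPKM in every library the median ratio was 3.15. Of these, 87 were less than 4-fold apart, 48 were 4-fold or more apart, and 11 of the 48 were 10-fold or more apart.

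The steadiest transcript was ISGT_41384, with 101 RPKM in tetrasporophytes, 104 RPKM in males and 106 RPKM in females, a ratio of highest to lowest of 1.05. It was also among the least abundant of the set. ISGT_40146 stood at 149 RPKM in tetrasporophytes, 151 RPKM in males and 159 RPKM in females, a ratio of 1.07. ISGT_7888 had 108 RPKM in tetrasporophytes, 118 RPKM in males and 117 RPKM in females. ISGT_4073 had 162 RPKM in tetrasporophytes, 148 RPKM in males and 159.7 RPKM in females. These 4 were less than 1.1-fold apart, and they differed in which library was the low one: the tetrasporophyte for the first 3 and the male for ISGT_4073.

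The most abundant of the 6 steadiest was ISGT_3215, at 203 RPKM in tetrasporophytes, 201 RPKM in males and 219.6 RPKM in females. ISGT_40001 was nearly equal in 2 libraries, with 131.6 RPKM in tetrasporophytes and 131.5 RPKM in males, and lower in females, with 119 RPKM. None of these 6 was in the top 100 of any library, their best rank being 240 for ISGT_3215 in the female. The ratio of highest to lowest was wider in the more abundant steady transcripts, with a median of 1.47 between 100 and 200 RPKM, 1.53 between 200 and 300 RPKM, 1.57 between 300 and 500 RPKM, 1.67 between 500 and 1000 RPKM and 1.71 at 1000 RPKM or more. The rule itself narrows the ratio near 100 RPKM: below a geometric mean of 159 RPKM, the lower limit leaves out some patterns that the 2-fold limit would admit.

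The limits of the rule cut through a continuum. Just inside the 2-fold limit lay ISGT_42207, with 255 RPKM in tetrasporophytes, 232 RPKM in males and 462 RPKM in females, and ISGT_41358, with 310.3 RPKM in tetrasporophytes, 156 RPKM in males and 228 RPKM in females. ISGT_41983 was the next, with 396 RPKM in tetrasporophytes, 346 RPKM in males and 684 RPKM in females. These 3 had ratios of 1.99, 1.99 and 1.98. Just outside lay ISGT_1982 (134, 238 and 271 RPKM in the tetrasporophyte, male and female), ISGT_8112 (415, 205 and 272 RPKM) and ISGT_42372 (211, 167 and 341 RPKM), with ratios of 2.02, 2.02 and 2.05. Inside as outside the limit, the highest library was the female for 2 and the tetrasporophyte for 1. The male was lowest in all 3 just inside and in 2 just outside, where the tetrasporophyte was lowest for ISGT_1982.

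At the other limit, the members with the lowest values were ISGT_1492, at 100.47 RPKM in tetrasporophytes, 108 RPKM in males and 112 RPKM in females, ISGT_41384, and ISGT_1742, with its lowest value of 101.17 RPKM in the male. Left out by less than 1.1 RPKM were ISGT_6777, with 99.87 RPKM in the male, ISGT_1590, with 99.57 RPKM in the male, and ISGT_7393, with 98.99 RPKM in the tetrasporophyte. Each of these 3 was above 100 RPKM in its other 2 libraries.

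Across the steady transcripts the female tended to stand a little above the other libraries, and the tetrasporophyte and male had no common direction. The log2 ratio of tetrasporophyte to male had a median of -0.013, with quartiles of -0.40 and 0.39. It was above 0 in 75 of the 152 transcripts and below 0 in 77. The median log2 ratio of tetrasporophyte to female was -0.12, with 57 transcripts above 0 and 95 below. For male to female the median was -0.16, with 60 above 0 and 92 below. Over the 14126 transcripts with at least 1 RPKM in all 3 libraries, the same medians were 0.043, 0.15 and 0.055, so that there the female was slightly the lower. Over the 135 other transcripts at 100 RPKM or more in all 3 libraries, the medians were 0.85, 0.17 and -0.54. Among those 135 the female thus stood above the male and slightly below the tetrasporophyte. The rule holds steady ratios within 2-fold and leaves the wider ones to the 135, so nothing is read from the sizes of their medians.

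The size of this offset, and the side on which all transcripts lay, depended on the scaling. Median-of-ratios scaling shifts the log2 ratio of every transcript by 0.072 for tetrasporophyte to male, by -0.21 for tetrasporophyte to female and by -0.28 for male to female. The medians of the 152 were then 0.059, -0.32 and -0.44, and those of the 14126 were 0.11, -0.057 and -0.22. The factors of this scaling were taken over all transcripts above 0 RPKM in all 3 libraries, including those below 1 RPKM. Other scalings shifted the ratios to the female less. For tetrasporophyte to female and male to female, upper-quartile scaling gave -0.24 and -0.26 for the same 152, and 0.026 and -0.046 for the 14126. Scaling each library to 1000000 gave -0.21 and -0.30 for the 152, and 0.054 and -0.088 for the 14126.

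The steady transcripts also differed in which library was lowest, given here beside the share over all 14126 transcripts as background. The female was lowest in 26 of the 152 (17.1%, background 39.1%). The tetrasporophyte was lowest in 65 steady transcripts, against a background of 28.5%, and the male in 61, against a background of 32.4%. The highest value was in the tetrasporophyte for 45 (background 39.1%), in the male for 46 (background 32.5%) and in the female for 61 (background 28.4%). Of the 6 possible orders, 4 were about equally common, with 34, 31, 31 and 30 transcripts, and the 2 orders with the female lowest held 14 and 12. In 65 transcripts the female lay between the other 2 libraries, which were then the extremes. Among the 135 abundant transcripts that were 2-fold or more apart, the female was lowest in 25 (18.5%). Since all these libraries entered the choice of the 152, nothing is read from the distance of their counts to the background. With median-of-ratios scaling the female was lowest in 5 of the same 152 (3.29%), in 23 of the 135 (17.0%) and in 26.6% of all 14126. The highest library of the 152 was then the tetrasporophyte in 32 (34.1% of all 14126), the male in 22 (23.6%) and the female in 98 (42.3%). Upper-quartile scaling changed these counts less: the female was lowest in 16 of the 152 (33.4% of all 14126) and highest in 73 (34.6%).

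Within the set, the female offset was larger at higher levels, a difference that the rule itself can widen. Among the 59 steady transcripts with a geometric mean of 200 RPKM or more, the median log2 ratio was -0.39 for male to female and -0.24 for tetrasporophyte to female, and the female was the highest library in 30 and the lowest in 8. Among the 93 below 200 RPKM the medians were -0.065 and -0.093, and the female was the highest in 31 and the lowest in 18. The tetrasporophyte to male medians were 0.014 in the upper class and -0.022 in the lower. Below a geometric mean of 159 RPKM the lower limit of the rule narrows the ratios, which affects the lower class only. How much of the difference between the classes comes from this was not tested, so nothing is read from that difference.

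**Figure D2:**
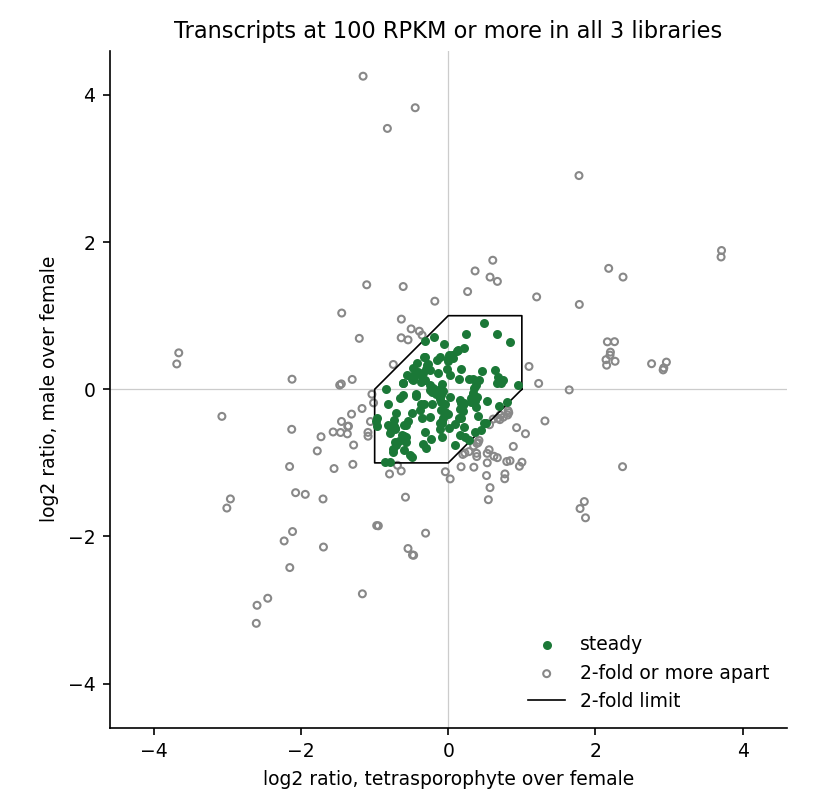
Log2 ratio of tetrasporophyte to female (horizontal) against log2 ratio of male to female (vertical) for the 287 transcripts at 100 RPKM or more in all 3 libraries. Filled points are the 152 steady transcripts, open points the 135 that were 2-fold or more apart, and the outline is the 2-fold limit. The filled points thin out where both ratios are above 0, the corner in which the female is lowest.

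Differences of 1.5-fold within a pair were present in part of the set. In the tetrasporophyte, 17 steady transcripts were at least 1.5-fold above the male (background 24.7%) and 19 at least 1.5-fold below it (background 20.9%). Against the female, 10 were higher in the tetrasporophyte by 1.5-fold or more (background 30.2%) and 28 were lower by as much (background 17.1%). Between the sexes, 7 were higher in the male by 1.5-fold or more (background 24.8%) and 23 were lower by as much (background 18.3%). The rule limits these counts, so nothing is read from their distance to the background. Within 1.2-fold of each other were 49 transcripts in tetrasporophyte and male (32.2%, background 27.8%), 58 in tetrasporophyte and female (38.2%, background 27.2%) and 63 in male and female (41.4%, background 29.4%). The rule favours such close values, so nothing is read from the distance of these shares to the background either.

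The transcripts at the ends of these pairs show what the rule admitted. ISGT_41358, given above at the 2-fold limit, and ISGT_1090, with 229 RPKM in tetrasporophytes, 116 RPKM in males and 189 RPKM in females, had the highest tetrasporophyte to male log2 ratios, 0.99 and 0.98. At the other end, ISGT_4517 had 106 RPKM in tetrasporophytes, 206 RPKM in males and 131 RPKM in females, a log2 ratio of tetrasporophyte to male of -0.96. ISGT_41253 had 102 RPKM in tetrasporophytes, 191 RPKM in males and 117 RPKM in females, a log2 ratio of -0.90. In both, the male stood highest and the other 2 libraries were closer to each other.

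The highest tetrasporophyte to female log2 ratio was 0.95, of ISGT_4455, with 298 RPKM in tetrasporophytes, 162 RPKM in males and 155 RPKM in females. ISGT_4441 followed with 226 RPKM in tetrasporophytes, 199 RPKM in males and 127 RPKM in females, a ratio of 0.83. The lowest were those of ISGT_6017, with 411 RPKM in tetrasporophytes, 601 RPKM in males and 813 RPKM in females, and of ISGT_41108, with 273 RPKM in tetrasporophytes, 406 RPKM in males and 533 RPKM in females, log2 ratios of -0.98 and -0.97. Both of these stepped up through tetrasporophyte, male and female. Between the sexes, ISGT_42020 had the highest male to female log2 ratio, 0.90, with 156 RPKM in tetrasporophytes, 208 RPKM in males and 111 RPKM in females. ISGT_4499 was next, at 0.76, with 260.2 RPKM in tetrasporophytes, 372 RPKM in males and 220.04 RPKM in females. The lowest male to female ratios were -0.99 and -0.98, those of ISGT_42207 and ISGT_41983, given above.

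The order of the steady transcripts by level was kept in part from library to library. Over the 152, the Spearman correlation of RPKM was 0.75 between tetrasporophyte and female, 0.73 between male and female and 0.63 between tetrasporophyte and male. Pearson correlations of log2 RPKM were 0.86, 0.87 and 0.79. The rule, which holds every pair of values within 2-fold, sets a floor under these values, and the transcripts share the libraries, so no p is given.

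The share of transcripts below 2-fold apart was smaller at the highest levels than at moderate ones. Of the 287 transcripts at 100 RPKM or more in all 3 libraries, 152 (53%) were below 2-fold apart, while of the 14126 at 1 RPKM or more in all 3 libraries 8096 (57.3%) were. By geometric mean, the share below 2-fold apart was 63.8% between 10 and 30 RPKM and 59.9% between 30 and 100 RPKM. It was 42.3% between 100 and 300 RPKM (195 of 461) and 30.2% at 300 RPKM or more (29 of 96). In the lower classes it was 50.4% between 3 and 10 RPKM and 50.2% between 1 and 3 RPKM, where the minimum of 1 RPKM removes transcripts with a very low library. The classes from 100 RPKM upward admit transcripts with a library below 100 RPKM, and 1 very high library can lift a transcript into them. Their smaller shares are thus partly built into the classing. The median ratio of highest to lowest was 1.69 between 10 and 30 RPKM, 1.75 between 30 and 100 RPKM, 2.23 between 100 and 300 RPKM and 3.43 at 300 RPKM or more. Near-equal values, below 1.1-fold apart, were rare throughout: 177 of 5860 transcripts between 10 and 30 RPKM, 5 of 461 between 100 and 300 RPKM and 0 of 96 at 300 RPKM or more.

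**Figure D3:**
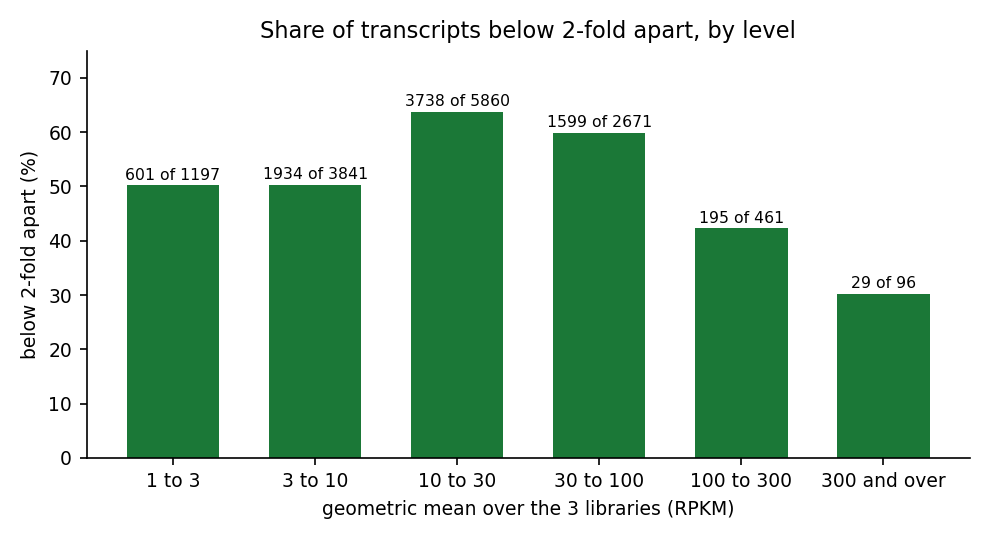
Share of transcripts whose highest value was below 2 times the lowest (percent, bars from 0), by geometric mean over the 3 libraries, for transcripts at 1 RPKM or more in each. The numbers above the bars are counts. The share is highest between 10 and 30 RPKM (63.8%) and lowest at 300 RPKM or more (30.2%).

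Since the rule used every library, the same choice was also made on 2 libraries at a time and read in the library left out. The transcripts at 100 RPKM or more and below 2-fold apart in male and female numbered 317. In the tetrasporophyte, 228 of these (71.9%) also reached 100 RPKM, and 225 (71.0%) were within 2-fold of the geometric mean of the male and female values. Of the 317, 23 lay 2-fold or more above that mean and 69 (21.8%) 2-fold or more below it, with the lowest at 0.21 RPKM. Chosen on tetrasporophyte and female, 307 transcripts were read in the male: 215 (70.0%) reached 100 RPKM and 215 were within 2-fold of the mean of the other 2 libraries, with 12 above and 80 (26.1%) below. Chosen on tetrasporophyte and male, 238 were read in the female: 191 (80.3%) reached 100 RPKM and 175 (73.5%) were within 2-fold of the mean, with 19 above and 44 (18.5%) below. By the rule's own fold limit, with all 3 values less than 2-fold apart, the shares were lower: 186 of 317 (58.7%) read in the tetrasporophyte, 181 of 307 (59.0%) in the male and 157 of 238 (66.0%) in the female. The full rule was met by the same 152 in each case. The library left out fell below 10 RPKM in 5, 6 and 7 of these transcripts for the tetrasporophyte, male and female.

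Abundant pairs that were 2-fold or more apart gave a different picture by measure. The library left out reached 100 RPKM in 75.6% of them in the tetrasporophyte, 74.2% in the male and 82.8% in the female, slightly more than for the close pairs. A wide pair must hold a value of at least 2 times the lower limit, which a close pair need not. The pairs are thus not matched in level, and nothing is read from this difference. The share within 2-fold of the pair's mean was smaller than for the close pairs, but a wide pair can itself lie outside that band. The pair's range runs from its lower to its higher value. Within 2-fold of this range lay 67.9% in the tetrasporophyte, 69.1% in the male and 81.0% in the female. For the close pairs, whose range is narrower, these shares were 79.2%, 81.1% and 79.0%. Where the 2 choosing libraries were both at 100 RPKM or more but 2-fold or more apart, the share within 2-fold of their mean was 37.2% in the tetrasporophyte (29 of 78), 47.4% in the male (46 of 97) and 57.8% in the female (67 of 116). Where the 2 were between 10 and 100 RPKM and below 2-fold apart, it was 87.6% in the tetrasporophyte (5246 of 5986), 89.6% in the male (5275 of 5889) and 87.4% in the female (5427 of 6210). The median log2 ratio of the library left out to that mean, for the abundant and close pairs, was -0.36 in the tetrasporophyte, -0.49 in the male and 0.06 in the female. For pairs between 10 and 100 RPKM it was -0.0036 in the tetrasporophyte, -0.087 in the male and -0.011 in the female. A choice at 100 RPKM or more has no upper bound, whereas a choice between 10 and 100 RPKM has one, so the classes are not matched in this respect. The choice at 100 RPKM also sets a lower limit in 2 libraries and none in the library left out. This favours lower values there, so nothing is read from the excess below the mean.

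**Figure D4:**
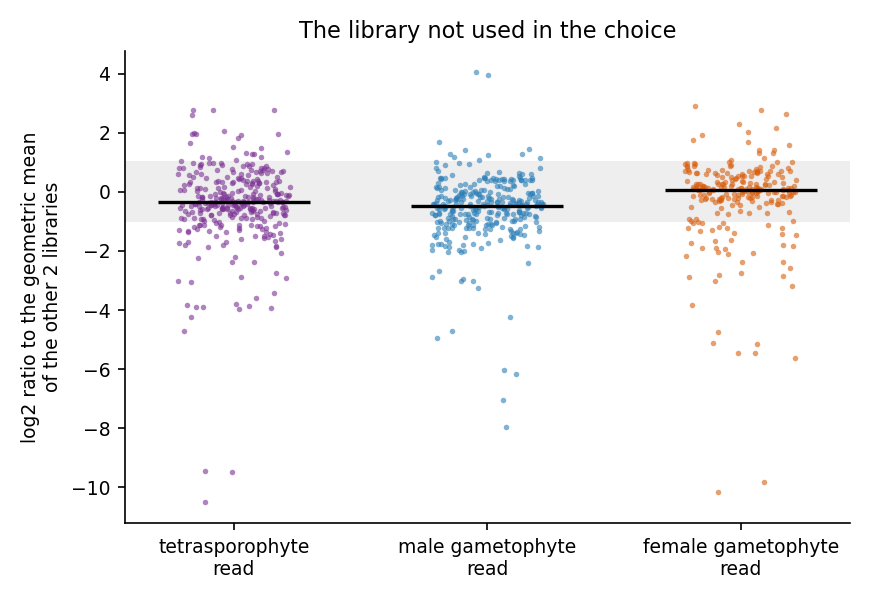
Log2 ratio of each library to the geometric mean of the other 2, for transcripts at 100 RPKM or more and below 2-fold apart in those 2 (317 read in the tetrasporophyte, 307 in the male, 238 in the female). Points are transcripts, black lines medians, and the shaded band is within 2-fold. The points below the band outnumber those above it in every library, and the medians are -0.36, -0.49 and 0.06. The choice set a lower limit in the other 2 libraries only, which favours lower values in the library read.

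The transcript numbers, which the rule did not use, were shared out unevenly. Of the 152 steady transcripts, 85 had a number below 5000, 14 a number from 5000 to below 10000, and 53 a number from 39000 upward. None had a number from 10000 to below 39000, a range that holds 53.8% of the transcripts listed for all 3 libraries. The same range holds only 80 of the 1251 transcripts that reached 100 RPKM in any library, and 2 of the 287 that reached it in all 3. Among these 287, the share that was steady was 56.7% below 5000 (85 of 150), 41.2% from 5000 to below 10000 (14 of 34) and 52.5% from 39000 upward (53 of 101). Abundant transcripts in general were thus placed much like the steady ones along the numbers.

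The densest block of 500 numbers, 4000 to 4499, held 28 steady transcripts among 481 listed for all 3 libraries (5.82%), and 22 of the 135 abundant transcripts that were 2-fold or more apart. Of the 87 blocks of 500 with a listed transcript, 25 held a steady one. What the numbering follows (an assembly order, a length order or a merged source) is not given in the sources used here.

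**Figure D5:**
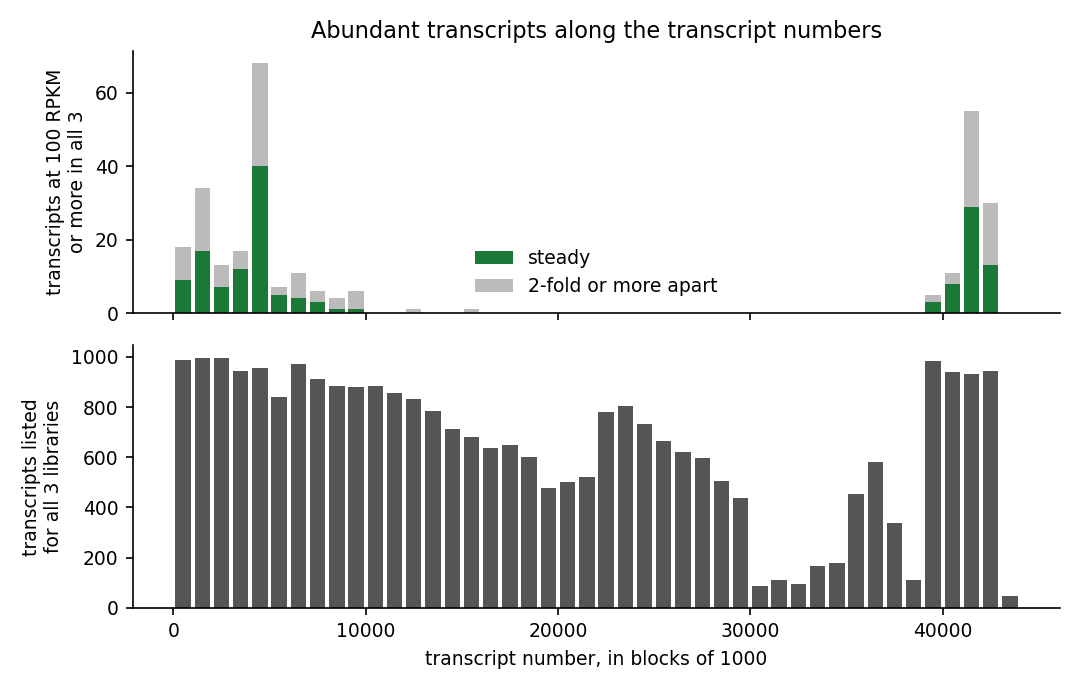
Above, the number of transcripts at 100 RPKM or more in all 3 libraries per block of 1000 transcript numbers, split into those below 2-fold apart (steady, 152 in all) and those 2-fold or more apart (135). Below, the number of transcripts listed for all 3 libraries per block. Steady transcripts occur below 10000 and from 39000 upward, in the blocks where other abundant transcripts also lie.

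Consecutive numbers were few. In 6 cases a steady transcript was followed by another with the next number, which gives 5 runs with 11 transcripts, and among the 135 other abundant transcripts there were 4 such cases. The longest run was ISGT_4441, ISGT_4442 and ISGT_4443. Its first member was given above with the female lowest, ISGT_4442 stood at 211 RPKM in tetrasporophytes, 114 RPKM in males and 180.01 RPKM in females, and ISGT_4443 at 134 RPKM in tetrasporophytes, 145 RPKM in males and 203 RPKM in females. Each of the 3 thus had another library lowest. The pair ISGT_4141 and ISGT_4142 was alike in pattern, with 129.0 and 145 RPKM in tetrasporophytes, 168 and 163.5 RPKM in males, and 128.8 and 143 RPKM in females, so that the male was highest in both.

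ISGT_42333, which follows the most abundant steady transcript, had 125 RPKM in tetrasporophytes, 126 RPKM in males and 206 RPKM in females. Like ISGT_42332 it was highest in the female and lowest in the tetrasporophyte, at a much lower level. ISGT_1996 and ISGT_1997 went opposite ways: ISGT_1996 had 154 RPKM in tetrasporophytes, 227 RPKM in males and 172 RPKM in females, while ISGT_1997 had 172 RPKM in tetrasporophytes, 106 RPKM in males and 119 RPKM in females. In the last run the male was lowest in both: ISGT_4145 had 260.45 RPKM in tetrasporophytes, 208 RPKM in males and 261 RPKM in females, and ISGT_4146 had 226 RPKM in tetrasporophytes, 125 RPKM in males and 211.5 RPKM in females. Whether neighbours are fragments or copies of 1 gene cannot be read from the numbers.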

How the data were processed

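The files hold 1 RPKM value per transcript and library, which the authors deposited with 2 decimals; the unit is RPKM per the file headers. Extraction with TRI Reagent and Illumina library preparation are given by the labels' protocols. How reads were assembled and mapped is not given in the sources used here, nor are transcript lengths or read totals. Depth is therefore unknown and no counting interval was computed.

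The 3 files were joined on the transcript number. No scaling, filter or pseudocount was applied to the members, which all lie at 100 RPKM or more. The background for ratios was every transcript at 1 RPKM or more in all 3 libraries. Transcripts missing from a listing could not be members. With 1 library per stage no test was run. The members, the rule and the descriptions were chosen with earlier results of these data known. Transcripts were named by rank: the 6 most abundant, the 6 steadiest, the 3 nearest to each limit on either side, the 2 highest and 2 lowest per pair, and runs of consecutive numbers. The reading of a library left out of the choice and the classes of level were added after the values were seen. The selection, medians and neighbour counts were tested on simulated data, where they returned the values put in. No planted level lay near 100 RPKM and no simulated ratio near the 2-fold limit, so selection close to the limits was not tested. Alternatives were other scalings, lower limits, fold limits and a pseudocount. The scripts ran under scipy 1.17.1, pandas 2.3.3, numpy 2.4.6 and Python 3.11.15.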

Additional observations from a re-analysis of the deposited data

How the results depend on the processing

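No paired analysis was possible because each life stage had 1 library, and for the same reason there was no replicate to leave out. A count or share of RPKM was taken as moved past 1.5 times, a median log2 ratio past 0.1, and a share of members outside its exact binomial 95% interval. Transcripts are not replicates and the alternative sets overlap the steady set. The interval therefore served as a fixed margin and not as a test. Of 110 recomputed values, 71 stayed and 39 moved. The cause was not tested beyond the construction of each alternative.

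The set depended most on its limits. With a lower limit of 50 RPKM it held 595 transcripts, with 47 neighbours, and 14.5% of the summed RPKM in the tetrasporophyte, 14.3% in the male and 17.6% in the female. With 1 RPKM it held 8096, with 3937 neighbours and 42.3%, 40.6% and 47.6%; the median log2 ratio of tetrasporophyte to female was then 0.024, on the other side of 0, and that of male to female -0.013. With 200 RPKM it held 41, with 0 neighbours and 3.63%, 3.54% and 5.10%; the highest library was the tetrasporophyte in 19.5%, the male in 14.6% and the female in 65.9%, and the median log2 ratios to the female were -0.30 for the tetrasporophyte and -0.39 for the male. With a limit of 1.5 times it held 77, with 1 neighbour and 3.07%, 2.96% and 3.35%. With 3 times there were 11 neighbours. Scaling each library to 1000000, which raises all values, gave 597 transcripts with 46 neighbours and 13.8%, 13.8% and 16.4%.

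Scaling by median of ratios kept 122 of the 152 in a set of 126, with the highest library the tetrasporophyte in 22.2%, the male in 15.9% and the female in 61.9%, and median log2 ratios to the female of -0.30 for the tetrasporophyte and -0.32 for the male. Upper-quartile scaling kept 141 and moved the tetrasporophyte to female median to -0.22. Scaling to the mean of the 3 sums, chosen after seeing the data, kept 137. A pseudocount of 1 RPKM kept all 152, as it had to: it only lowers the ratio of highest to lowest, and the lower limit was applied without it. Its values, all counted among those that stayed, were thus nearly fixed in advance. Read totals are unknown, so counting error could not be set beside any ratio near the 2-fold limit.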
